A study of Equus caballus with 4 samples.

Results

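SERPINF1 and SELENOP encode secreted proteins that stromal cells of many tissues release. They were 2 of the 25215 genes or transcripts that the horse array addressed, and were read by 3 of its 43603 probes, 1 for SERPINF1 (gene ID 100072415) and 2 for SELENOP (gene ID 100052968). The genes were chosen by their measured log2 ratios of sarcoid over skin on these same arrays, where both lay among the largest rises of named genes, so their values are given as a description with no test. Probes were found by matching the RefSeq accession on the array to a horse gene table, and each gene matched 1 accession on the array. The samples were sarcoids, which are fibroblastic skin tumours of horses, and skin taken away from the tumour, from the same 4 horses. Each horse gave 1 two-colour array with sarcoid RNA in the Cy3 channel and skin RNA in the Cy5 channel. The dyes were swapped on 0 arrays, so a difference between the dyes cannot be told apart from a difference between the tissues. No treatment of the animals is named in the labels, and age, breed and clinical type were not analysed here.

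SERPINF1 encodes pigment epithelium-derived factor (PEDF), a serpin that has lost protease inhibition. It binds collagen and heparin in the matrix and is known as an inhibitor of blood vessel growth. SELENOP encodes selenoprotein P, the plasma protein that carries selenium in the form of selenocysteine residues from the liver to other organs, where receptors of the LDL receptor family take it up. In human tissues SELENOP transcripts are also found in fibroblasts and resident macrophages.

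The scanner software marked 67.2% to 78.4% of spots as well above background in the sarcoid channels and 74.8% to 80.7% in the skin channels, and 0 spots as saturated. Before normalization the median spot leaned to the sarcoid channel by a log2 ratio of 0.88 in horse 1 and to the skin channel in horse 4, at -0.51. It stood at -0.08 in horse 2 and 0.23 in horse 3. Unless another treatment is named, every ratio below was therefore normalized within its array by an intensity-dependent curve (loess). The 4 arrays limit the precision of each mean.

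The scanner signals of both genes were far from the background in each tissue. The SERPINF1 probe A_69_P035046 gave median pixel intensities of 70301, 36880, 56472 and 13786 in the sarcoids of horses 1 to 4, against 7674, 13965.5, 12287 and 13810.5 in their skin, over local backgrounds of 23 to 26 in the sarcoid channel and 44 to 55 in the skin channel. In horses 1, 2 and 3 the sarcoid spot was the brighter one, while in horse 4 the 2 raw signals were nearly equal. The SELENOP probe A_69_P128951 gave 38175, 15374.5, 18265 and 10402 in the sarcoids, against 3835, 5903.5, 8767 and 5879 in the skin. In each horse the sarcoid signal of that SELENOP probe was above its skin signal. Its second probe, A_69_P128952, gave 35267, 15015.5, 16901.5 and 10434 in the sarcoids, against 3208, 5354.5, 7875.5 and 5546 in the skin. All 12 pairs of spots were well above background in both channels, and 0 carried a flag for a non-uniform or outlying spot. The local background of A_69_P128952 in horse 1 was marked as an outlier among backgrounds, in 1 channel or both.

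After normalization the SERPINF1 level on the log2 scale was 16.40, 15.78, 16.32 and 14.13 in the sarcoids of horses 1 to 4, against 12.85, 13.27, 13.09 and 12.95 in their skin. Horse 4 had the lowest sarcoid level. The log2 ratio of sarcoid over skin was 3.55, 2.51, 3.23 and 1.18, a mean of 2.62 ± 1.05 (SD, n = 4), or 6.13-fold. For single horses this ran between 2.26-fold in horse 4 and 11.7-fold in horse 1. In the fit across all 19608 targets, 5.84% were called higher in the sarcoid, 9.9% lower and 15.7% in either direction (limma, adjusted p under 0.05). SERPINF1 and SELENOP were both among those called higher, which the way they were chosen fixes, and nothing is read from it.

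The SELENOP level from A_69_P128951 was 15.49, 14.51, 14.54 and 13.71 on the log2 scale in the sarcoids, against 11.99, 12.12, 12.67 and 11.75 in the skin. Horse 1 had the highest sarcoid level. The log2 ratios were 3.50, 2.39, 1.87 and 1.96 in horses 1 to 4, with a mean of 2.43 ± 0.75 (SD, n = 4), or 5.39-fold. The second probe gave 3.61, 2.49, 1.88 and 2.05, with a mean of 2.51 ± 0.78 (SD, n = 4). Both probes read the same transcript, so they are repeated readings of 1 RNA sample and not replicates. They differed by at most 0.11 on the log2 scale in any horse and by 0.08 on average, while the horses differed by up to 1.63 on the first probe. For comparison, the 50 probes printed 5 times on each array had a median SD of 0.07 between spots of 1 array. SERPINF1 had a single probe, so no second reading of it exists on these arrays.

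**Figure D1:**
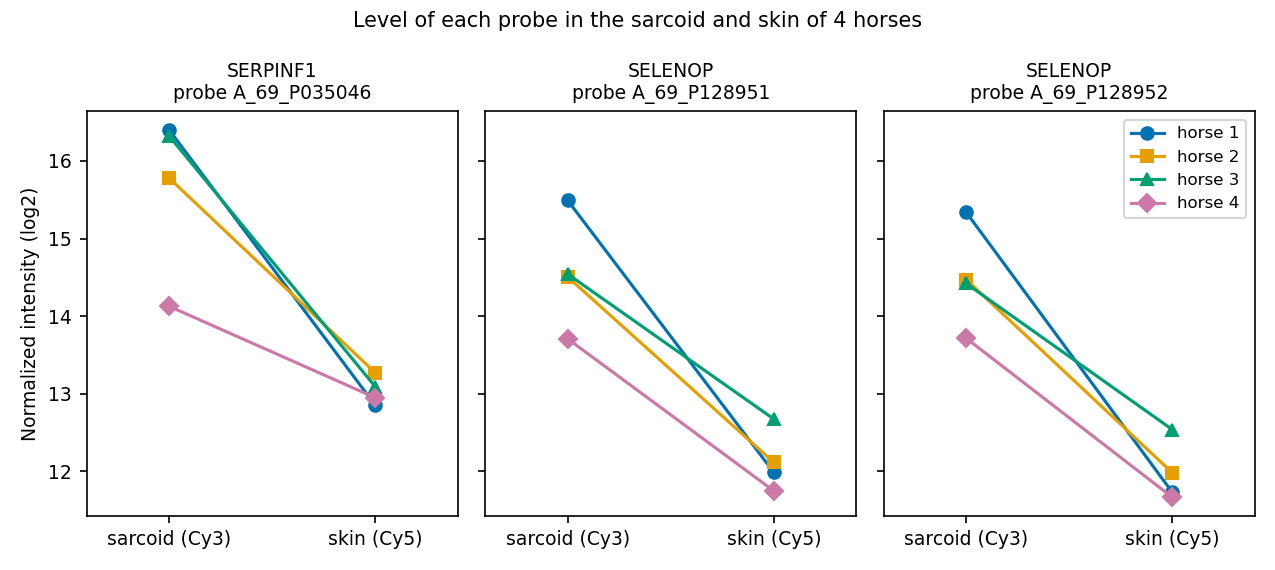
Normalized intensity (log2, y axis) of the SERPINF1 probe and the 2 SELENOP probes in sarcoid (left of each panel) and skin (right), with 1 line per horse. Sarcoid levels lie above skin levels for every horse and probe, and the SERPINF1 skin points lie between 12.85 and 13.27 while its sarcoid points run between 14.13 and 16.40.

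The variation of SERPINF1 among horses lay mainly in the sarcoid channel. Its level had an SD of 1.06 on the log2 scale over the 4 sarcoids and of 0.18 over the 4 skin samples. With the scanner software's own processed signals the SD was 1.19 over the sarcoids and 0.14 over the skin samples. SELENOP varied in both tissues, with SDs of 0.73 over the sarcoids and 0.39 over the skin samples on A_69_P128951, and of 0.67 over the sarcoids and 0.40 over the skin samples on A_69_P128952. A wider spread among sarcoids was common on these arrays. The sarcoid SD exceeded the skin SD for 76.8% of the 19575 targets with a level on every array, with a median SD of 0.35 over the sarcoids and 0.20 over the skin samples, and for 83.8% of the 1143 such targets called higher in the sarcoid. The SERPINF1 skin SD was close to the median of all targets, and its sarcoid SD was above the median.

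The 2 genes did not rank the horses alike. SERPINF1 minus SELENOP, as a difference of log2 ratios, was 0.04 in horse 1, 0.12 in horse 2, 1.36 in horse 3 and -0.78 in horse 4. The mean difference was 0.19 ± 0.88 (SD, n = 4). The genes had nearly the same ratio in horses 1 and 2, SERPINF1 had the larger one in horse 3 and SELENOP had the larger one in horse 4. In horse 3 the SELENOP skin level, at 12.67, was the highest of the 4 skin samples. In horse 4 the SERPINF1 skin level was within the range of the other horses and its sarcoid level, at 14.13, lay below the 15.78 to 16.40 of the other horses.

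Normalization moved the size of the ratios, and every horse was above 0 in the 3 treatments given here by horse. Before any centring the background-subtracted log2 ratio of SERPINF1 in horse 4 was 0.00079. Its values above that in horse 4 therefore came with the normalization. When each array's median was subtracted from the background-subtracted ratio with no loess curve, SERPINF1 stood at 2.32, 1.49, 1.98 and 0.51 in horses 1 to 4, and SELENOP (A_69_P128951) at 2.45, 1.47, 0.84 and 1.34. These values were lower than the loess values in each horse, with means of 1.57 for SERPINF1 and 1.52 for SELENOP, while the median of all targets was -0.33. With the same median centring applied after the normexp background model with its offset of 50, the means were 2.03 and 1.98. The array medians taken off were 0.88, -0.08, 0.23 and -0.51 in horses 1 to 4 after plain subtraction, and 0.04, -0.43, -0.24 and -0.70 after the background model. The log ratio deposited by the scanner software, turned to sarcoid over skin and to log2, was 3.52, 2.48, 3.24 and 1.13 for SERPINF1. For SELENOP (A_69_P128951) it was 3.41, 2.41, 1.82 and 2.04. The software's own error estimate for a single spot was between 0.23 and 0.39 on the log2 scale for these 2 probes. The order of the horses in SERPINF1, with horse 1 highest and horse 4 lowest, was the same in all 3 treatments of the signals, while horse 3 was the lowest for SELENOP in each.

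**Figure D2:**
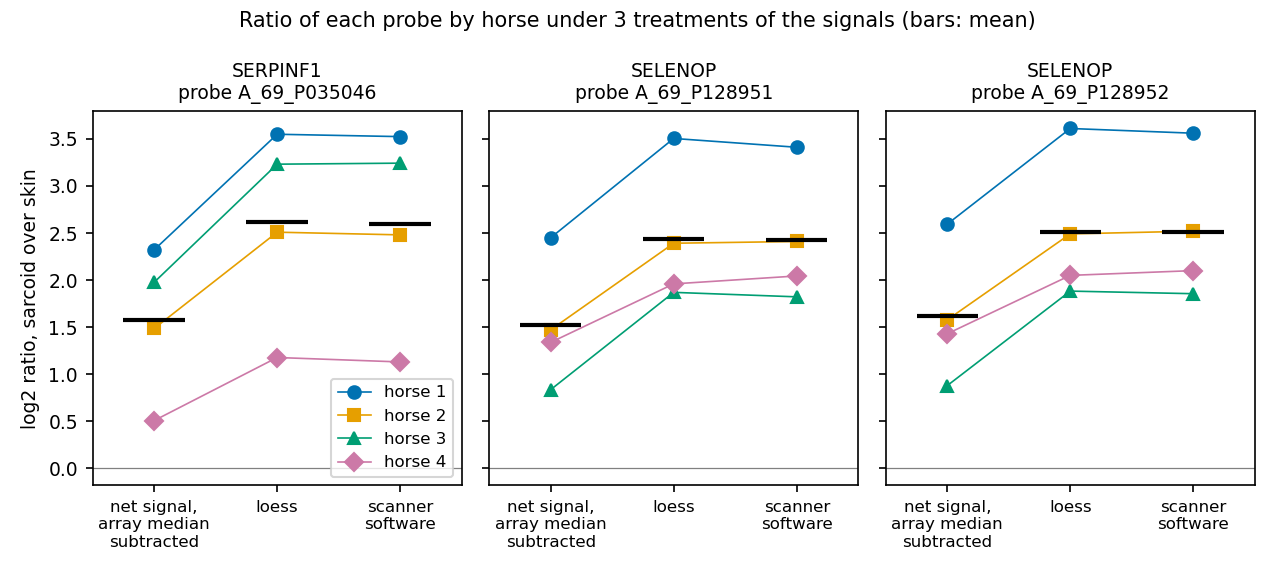
Log2 ratio of sarcoid over skin (y axis) for each probe and horse, from background-subtracted signals with the array median subtracted, after loess, and as deposited by the scanner software, with a black bar at the mean of 4 horses. Ratios without loess lie lowest in each horse, and the horse 4 point of SERPINF1 is the lowest of its panel at each setting.

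The genes most like each of the 2 were found by the root mean square difference of their 4 log2 ratios, among 790 other named targets. For SERPINF1 the nearest was SPARC, a collagen-binding matrix protein, at a root mean square difference of 0.66. SPARC had ratios of 3.36, 3.74, 3.65 and 1.20 in horses 1 to 4, so horse 4 was the lowest in both genes by a wide margin. Next came TNFAIP6, which binds hyaluronan (0.73), SELENOP itself (0.79), the proteoglycan BGN (0.81) and DSE, an enzyme of dermatan sulfate synthesis (0.84). For SELENOP the nearest was TNFAIP6 (0.42), with ratios of 2.80, 2.22, 2.27 and 1.93. It was followed by the leukocyte adhesion molecule VCAM1 (0.49), the metalloproteinase inhibitor TIMP1 (0.67), BGN (0.67) and the proteoglycan DCN (0.75). VCAM1 and SELENOP were both lower in horses 3 and 4 than in horses 1 and 2, VCAM1 having 3.24, 3.33, 1.84 and 2.04. With 4 horses this likeness rests mainly on a similar mean ratio, and it is a description.

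**Figure D3:**
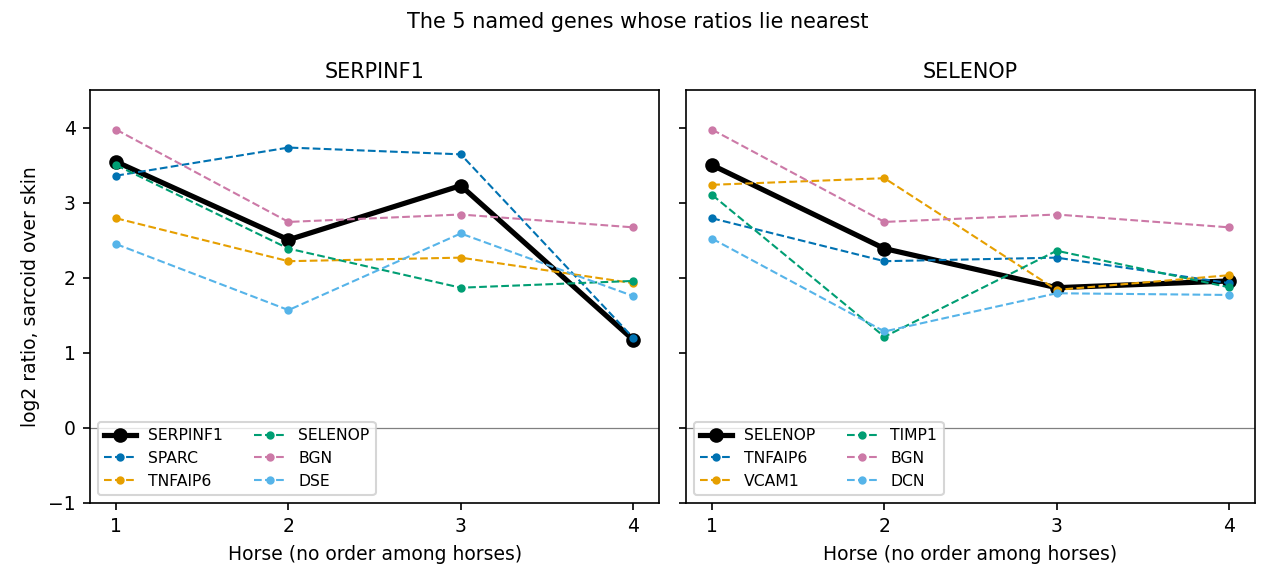
Log2 ratio of sarcoid over skin (y axis) in horses 1 to 4 (x axis) for SERPINF1 and SELENOP (solid black lines) and for the 5 named genes nearest to each (dashed lines); the lines only join values of 1 gene. SPARC and SERPINF1 were both lowest in horse 4, at 1.20 and 1.18.

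Selenoproteins are the proteins built with selenocysteine, and their synthesis needs selenium, of which SELENOP is a carrier. Beside SELENOP, 13 of 24 listed selenoprotein genes were measured, of which 3 were higher in the sarcoid, 2 were lower and 8 did not pass (limma, adjusted p under 0.05), where the shares over all targets were 5.84% higher and 9.9% lower. Only the 791 tested targets with a gene symbol other than a LOC number could enter the list, and of these 60 were higher and 95 lower. The median log2 ratio of the 13 was 0.14, against 0.0035 for all targets and -0.07 for those 791, and 7 of the 13 were above 0. They thus moved in both directions. SELENOP was chosen for its large ratio, so its rank among them is not read.

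SELENOM and SELENOF, thioredoxin-like proteins of the endoplasmic reticulum, were higher in the sarcoid. SELENOM had log2 ratios of 1.61, 1.19, 1.16 and 1.49 in horses 1 to 4, a mean of 1.36 ± 0.22 (SD, n = 4; limma adjusted p = 0.0034). SELENOF had 0.75, 0.51, 1.56 and 1.08, a mean of 0.97 ± 0.46 (SD, n = 4; limma adjusted p = 0.0311), and its 4 probes lay between 0.97 and 1.28. SELENOW, a small selenoprotein known from muscle, had 0.78, 0.31, 0.80 and 0.54, a mean of 0.61 ± 0.23 (SD, n = 4; limma adjusted p = 0.0383), and was named after its value was seen, as the fifth of 5 called members. The call of SELENOW was lost in 12 of 16 other settings, each horse left out included (limma adjusted p between 0.0682 and 0.144). Its ratio was 0.01 when arrays were centred on the median without loess, and -0.46 when plain background subtraction came before that centring.

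SELENOI and GPX3 were lower in the sarcoid. SELENOI, an ethanolamine phosphotransferase of membrane lipid synthesis, had log2 ratios of -2.04, -1.58, -1.43 and -1.80, a mean of -1.71 ± 0.27 (SD, n = 4; limma adjusted p = 0.00207), with its 3 probes between -1.71 and -1.06. GPX3, the extracellular glutathione peroxidase and, like SELENOP, a secreted selenoprotein of plasma, had -2.54, -0.61, -3.61 and -2.11, a mean of -2.22 ± 1.25 (SD, n = 4; limma adjusted p = 0.0355). Its 6 probes lay between -2.22 and -1.45. SELENOP was chosen for its rise, so its opposite sign to GPX3 in every horse is only a description. Horse 2 had the smallest fall of GPX3. With the background model fitted to all spots, none of the 5 calls held: the limma adjusted p was 0.226 for SELENOM, 0.118 for SELENOF, 0.104 for SELENOW, 0.184 for SELENOI and 0.152 for GPX3. Beyond that order of processing and the setting that kept outlier spots, SELENOM and SELENOI passed under every alternative run, while SELENOF and GPX3 each lost the call with horse 1, 3 or 4 left out. With these left out one by one, limma gave SELENOF an adjusted p of 0.0881, 0.0644 and 0.0956, and GPX3 one of 0.132, 0.0789 and 0.101. SELENOF also lost it on median centring, at 0.56 (limma adjusted p = 0.12), and at 0.10 with plain subtraction before it (limma adjusted p = 0.708), and GPX3 without the filter on dim probes (limma adjusted p = 0.0603).

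The 8 selenoprotein genes that did not pass had log2 ratios between -0.35 and 0.39. They included the cytosolic peroxidase GPX1, at 0.39 ± 0.87 (SD, n = 4), with 1.45 in horse 1 and -0.67 in horse 4. They also included SEPHS2, which makes the selenium donor for selenocysteine, at -0.35 ± 0.44, and TXNRD1, the cytosolic thioredoxin reductase, at 0.23 ± 0.32. TXNRD1 was dim, with mean levels of 7.02 in the sarcoid and 6.79 in the skin on the log2 scale. With the scanner software's processed signals it was at 0.68 (limma adjusted p = 0.204). SELENOS, of the endoplasmic reticulum, was at 0.14 ± 0.03, but at -0.79 with plain background subtraction and median centring (limma adjusted p = 0.00942), where SELENOK (-0.73, limma adjusted p = 0.03) and SEPHS2 (-0.96, limma adjusted p = 0.0187) passed too. A miss of the threshold with 4 arrays does not show that these genes were equal in both tissues.

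**Figure D4:**
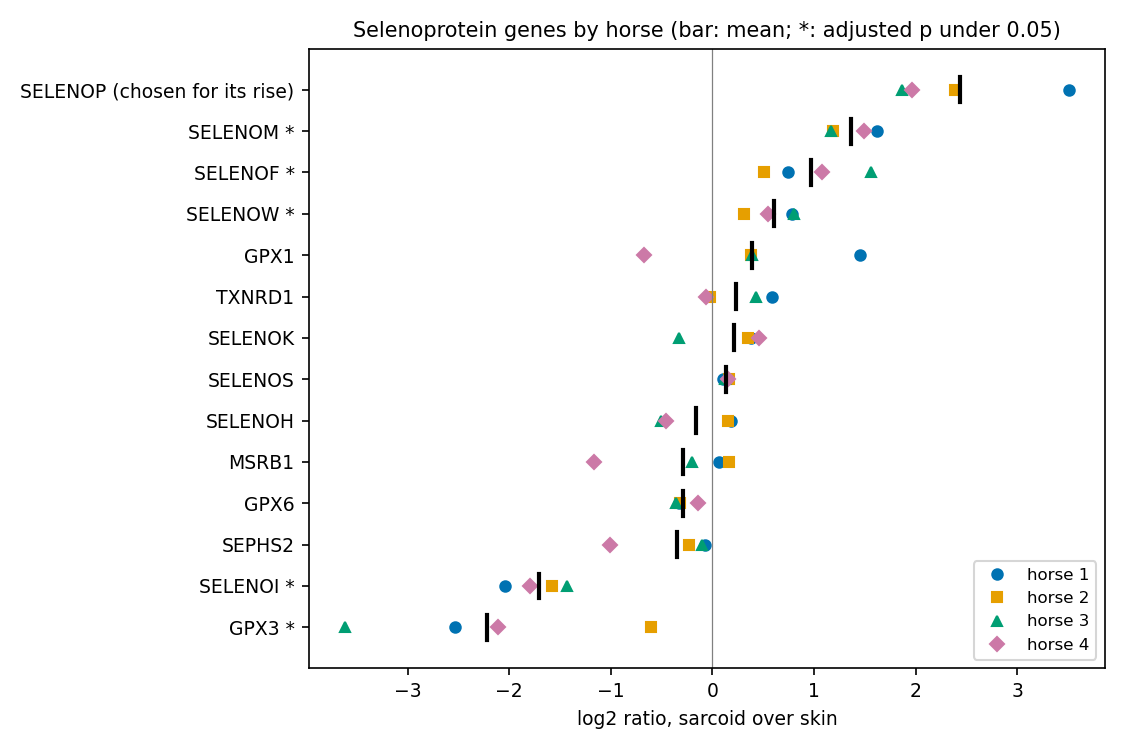
Log2 ratio of sarcoid over skin (x axis) of SELENOP and 13 other measured selenoprotein genes (rows), with 1 symbol per horse, a black bar at the mean, and a star for genes that passed limma at an adjusted p under 0.05 (not applied to SELENOP). The 13 other genes spread to both sides of 0, between GPX3 at -2.22 and SELENOM at 1.36. SELENOP, chosen for its rise, was at 2.43.

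The remaining genes around these proteins were sparsely measured by name. Of 12 genes for selenium uptake and selenocysteine synthesis only SEPHS1 was measured, at -0.05 ± 0.21 (SD, n = 4). Of 24 antioxidant genes outside the selenoproteins 3 were measured and 0 passed limma: the superoxide dismutases SOD1 at 0.20 ± 0.22 and SOD2 at -0.13 ± 1.23, and thioredoxin (TXN) at 0.65 ± 0.87, which passed without horse 2 (1.06, limma adjusted p = 0.0463) and in no other setting run. SOD2 differed in sign between horses, with -1.48 in horse 3 and 1.43 in horse 4. Of 6 receptors or partners described for PEDF, RPSA (the laminin receptor) was at 0.24 ± 0.44 and ATP5F1B, a subunit of ATP synthase, at -0.37 ± 0.53, and neither passed. On median centring without loess ATP5F1B was at -1.04 and passed (limma adjusted p = 0.019). With plain background subtraction before that centring, ATP5F1B (-1.51), RPSA (-0.96), SOD1 (-0.84) and SEPHS1 (-0.72) were lower and passed (limma adjusted p between 0.00159 and 0.0204).

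Of 29 other serpins, 2 were measured. SERPINB10, an intracellular serpin of blood-forming cells in humans, was lower in the sarcoid in every horse, with log2 ratios of -1.98, -2.18, -3.16 and -2.81 and a mean of -2.53 ± 0.55 (SD, n = 4; limma adjusted p = 0.00262). With the background model fitted to all spots it was at -1.49 (limma adjusted p = 0.216). SERPINB1, an inhibitor of neutrophil proteases, was at 0.49 ± 0.72 and did not pass. SERPINF1 was chosen for its rise, so its opposite sign to SERPINB10 in all 4 horses is only a description. Of 26 angiogenesis factors and receptors, 4 were measured and 0 passed. THBS2, a matrix inhibitor of vessel growth, was at 1.12 ± 1.18, with 2.55 in horse 1 and -0.21 in horse 4. VEGFA, the main growth factor of vessels, was at -0.26 ± 0.20 and rose well above background on 2 of the 4 sarcoid arrays. TIMP3 was at -0.39 ± 0.55 and FGF2 at 0.16 ± 0.25. FGF2 was at -0.57 and passed with plain subtraction and median centring (limma adjusted p = 0.032).

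Markers of the cell types that the samples could hold moved as well. In bulk tissue, fewer cells of a type and less RNA per cell cannot be told apart. All 5 measured fibroblast markers of 16 listed were higher in the sarcoid, where 5.84% of all targets were called higher. Their list medians were 2.29, 1.39, 2.44 and 1.78 in horses 1 to 4, and their summed intensity was 471149 to 674217 in the sarcoids, against 105426 to 182441 in the skin. These were LUM at 4.24, TBX15 at 2.22, COL5A2 at 2.05, DCN at 1.84 and VIM at 1.58 (limma adjusted p between 0.00139 and 0.0172). The 6 LUM probes lay between 3.26 and 4.24. COL5A2 was dim in the skin, at a mean level of 6.50 on the log2 scale. With the scanner software's processed signals its ratio was 3.58. Without horse 1 or 4 the limma adjusted p of TBX15 was 0.0679 or 0.0672. The list was written with earlier results of these arrays known, so its direction is no independent evidence. In horses 1 to 4 the SERPINF1 ratio was 3.55, 2.51, 3.23 and 1.18, and a link to the fibroblast medians was not tested. Of 15 macrophage markers 3 were measured. CSF1R, a receptor of macrophages, was higher at 1.24 ± 0.51 (SD, n = 4; limma adjusted p = 0.0199), with 1.99, 1.14, 0.92 and 0.90 in horses 1 to 4. Without horse 2 or 3 its limma adjusted p was 0.0674 or 0.0502. CD14 was at 1.14 ± 1.12 and CD68 at 0.35 ± 0.21, and neither passed, although CD14 did without horse 3 (1.66, limma adjusted p = 0.0292). The summed intensity of the 3 was 7362 to 21882 in the sarcoids, against 3731 to 9014 in the skin, so the ranges overlapped. Such sums rest mainly on the brightest members. CD14 had a mean sarcoid level of 13.64 on the log2 scale, against 9.61 for CSF1R and 8.18 for CD68. In the fibroblast sum DCN (18.35) and VIM (17.21) were the brightest. The part of either cell type in the ratios of SERPINF1 and SELENOP was not tested.

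Epithelial and pigment cell markers were lower where they passed, beside 9.9% of all targets called lower. The only measured keratinocyte marker of 15, KRT15, was at -5.12 ± 0.11 (SD, n = 4; limma adjusted p = 6.28e-05), with a signal of 445 to 999 in the sarcoids, against 16521 to 33841 in the skin. Of 4 gland genes measured of 11, LATH (-6.33), CA6 (-3.53) and LTF (-2.36) were lower and CA12 was at 0.06, with summed intensities of 3945 to 6579 in the sarcoids, against 294039 to 408903 in the skin. Of 6 melanocyte genes measured of 10, PMEL was lower at -2.16 ± 0.68 (SD, n = 4), TYRP1 was also lower but stood well above background on 0 sarcoid arrays, and 4 did not pass. The 2 PMEL probes were at -2.16 and -0.99, and the 3 TYRP1 probes lay between -2.70 and -1.62. The summed intensity of the 6 melanocyte genes was 1895 to 4104 in the sarcoids, against 4335 to 5422 in the skin. None of the 3 endothelial, 1 pericyte, 4 T and NK cell and 1 Schwann cell markers measured passed, and 0 of 8 adipocyte markers could be measured by name. The endothelial markers PECAM1 and VWF went opposite ways in different horses, with 2.29 and 1.59 in horse 2 and -1.84 and -1.95 in horse 3. The other members measured were SELE at -0.23, TAGLN at -0.10, CD2 at 0.60, KLRD1 at 0.67, IL7R at -0.04 and PMP22 at 0.95, while GZMB had 2.78 in horse 2 and -2.16 in horse 3. SELE, IL7R and CA12 were dim in both channels, at mean levels of 6.30 to 6.74 on the log2 scale. KLRD1 passed in 6 settings, namely without horse 3, at a normexp offset of 16, with the scanner software's processed signals, with the authors' value table, with the mean over probes and with plain subtraction and median centring (0.76 to 1.89, limma adjusted p between 0.0305 and 0.0451). With the background model fitted to all spots, the calls of LUM, DCN, KRT15 and LATH held, and those of COL5A2, TBX15, VIM, CSF1R, CA6, LTF, PMEL and TYRP1 were lost. On median centring without loess the calls of DCN (0.89, limma adjusted p = 0.0686), VIM (0.76, limma adjusted p = 0.104) and CSF1R (1.00, limma adjusted p = 0.0762) were lost as well. With plain subtraction before that centring DCN was at 0.42 and VIM at 0.30 (limma adjusted p = 0.159 and 0.283), while TAGLN, at -0.90, and CA12, at 0.89, passed (limma adjusted p = 0.0394 and 0.0218). The control genes ACTB and GAPDH were at -0.34 ± 0.45 and 0.27 ± 0.48 (limma adjusted p = 0.313 and 0.433), and ACTB was at -1.01 on median centring without loess (limma adjusted p = 0.0176), the setting in which SERPINF1 and SELENOP were at 2.03 and 1.98. With plain subtraction before that centring ACTB was at -1.48 and GAPDH at -0.87 (limma adjusted p = 0.00127 and 0.00694).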

How the data were processed

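The deposited scanner files hold 45220 features per array with spot and local background intensity for each channel, and the submitters' processing notes name Agilent Feature Extraction 11.5.1.1. Their processed intensity is background-subtracted and dye-normalized, and their log10 ratio is Cy5 over Cy3, per the file headers. The authors' deposited value table holds the same log10 ratio (largest difference 0; array medians of 0, -0.00262, -0.0118 and 0), which set its scale and direction; whether it was centred further is not given in the sources used here. Flags per spot, used as other values, are as deposited. Embryonic stem cells are named in 3 sample descriptions; source, dye and horse labels were used instead.

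Median signals were corrected with normexp (offset 50) after outlier-flagged spots had been left out, then put through loess, control spots having weight 0 (limma 3.58.1, R 4.3.3). The values per channel were also quantile-normalized on mean intensity. Repeated spots of a probe were averaged, and a probe was kept if well above background in either channel on 3 arrays or more, and the brightest probe stood for a target. The 4 ratios of each of 19608 targets were fitted with lmFit and eBayes and tested two-sided against 0, with p-values adjusted by Benjamini-Hochberg over all of them; a target with an outlying spot was fitted on the arrays that remained. The horse is inside each ratio. On simulated ratios for the 19608 targets, of which 100 were changed at each size, 35% of changes of 1 and 76% of changes of 2 on the log2 scale were recovered. In the data 3087 targets were called, so these shares do not give the recovery of the reported fit.

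Of 3437 probes with a RefSeq accession 2332 matched the gene table, whose assembly differs from the array's, so no coordinates are given. Members and lists were chosen with earlier results of these data known. Genes named are the members, the 5 nearest to each, ACTB, GAPDH, TBP and HPRT1 where measured, and list members: all where a list had 4 or fewer measured, otherwise up to 4 of the largest that passed, or 2 where none did; GPX1, SEPHS2, TXNRD1, SELENOS, SELENOK and SELENOW, and the fifth fibroblast marker, were added after their values were seen. One listed marker gene is not reported here. Alternatives varied background, normalization, filters, outlier spots, probe choice and horses. The arrays share 1 slide, so no block could be fitted.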

Additional observations from a re-analysis of the deposited data

Results flagged for a closer look

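Among 63 sets of 4 horses examined, 5 had 1 horse far from the other 3, by the gap to its neighbour as a share of the whole range; chance alone marks about 5% of such sets (Dixon's limit). SPARC, the gene nearest to SERPINF1, had a share of 0.852, with 1.20 in horse 4 and 3.36 to 3.74 in the others. BGN, near both genes, had 0.869, with 3.98 in horse 1 and 2.67 to 2.85 in the others, and VIM had 0.934, with 2.29 in horse 1 and 1.32 to 1.39 in the others. SELENOK had 0.855, with -0.33 in horse 3 and 0.35 to 0.46 in the others, and SEPHS2 had 0.838, with -1.01 in horse 4 and -0.23 to -0.08 in the others. The ratios and channel levels of SERPINF1 and SELENOP were not among the 5. No cause was tested.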

How the results depend on the processing

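Across 16 other settings, 2 of them added after the data were seen (background population outliers left out too, and plain background subtraction with median centring), the log2 ratio lay between 1.57 and 3.10 for SERPINF1 and between 1.52 and 2.62 for SELENOP. Each value was within 1 SD of the one reported, except SELENOP with plain subtraction and median centring, at 1.52. That setting put the median of all targets at -0.33, so SERPINF1 lay 1.90 and SELENOP 1.86 above it, against 2.61 and 2.43 as reported. As a description, the adjusted p reached 0.05 or more in 5 of 16 settings for SERPINF1 and in 2 for SELENOP. The counts of all targets moved more. With normexp fitted on all spots before outliers were left out, 93 were higher and 147 lower, against 1146 and 1941 reported, and with flagged spots kept 94 and 147. Plain subtraction with median centring gave 2763 higher and 6988 lower, and SELENOK (-0.73), SELENOS (-0.79), SELENOW (-0.46), SOD1 (-0.84), RPSA (-0.96), FGF2 (-0.57) and GAPDH (-0.87) were below 0 there and above 0 as reported, all but SELENOW with a call there. Centring after normexp left 614 higher (18.6% of calls, against 37.1% reported), while Agilent processed signals gave 1887 (48.2%) and 1883 came from the authors' value table. Leaving out each horse in turn left 389 to 820 higher and 1077 to 1415 lower, the lowest counts being without horse 1. For 24 other named genes that passed as reported, 382 comparisons under these settings kept the call 313 times, lost it 68 times and changed direction in 1. For 30 that did not pass, 456 of 479 comparisons stayed without a call, 17 gained one in the same direction and 6 gained one in the other. The cause of these changes was not tested. Some settings were near copies of each other, so these tallies do not count separate checks. Agilent processed signals and the authors' value table gave nearly the same ratios. Fitting normexp on all spots and keeping flagged spots gave nearly the same counts. Spots of both genes were well above background in both channels on all 4 arrays.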
